A study of Mus musculus with 120 samples.

Results

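Collagens are extracellular proteins built from 3 chains wound into a triple helix, and each chain has its own gene. Fibrillar collagens form the ropes of connective tissue, cartilage-type collagens form the finer network of cartilage and of the inner ear's extracellular matrices, and basement membrane collagens form the sheet on which an epithelium rests. The endolymphatic sac, a closed pouch of the inner ear filled with endolymph, is an epithelium surrounded by loose mesenchyme, and the transcription factor SOX9 is a known activator of cartilage collagens in chondrocytes.

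Collagen genes were taken as every symbol of the form Col, number, a, number in the expression table, which gave 44 of 48371 symbols. Levels were measured in single cells of mouse endolymphatic sac at E14.5 with Smart-seq2, which sequences the full length of transcripts cell by cell. There were 58 wild-type cells and 62 Sox9Y440X/+ cells, heterozygous for the Sox9Y440X allele, named for a stop codon in SOX9. The labels give no strain, sex, animal, litter or plate for any cell, so each genotype counted as 1 sample. A difference between genotypes cannot be told apart from one between animals, sexes or library batches. Values below are FPKM (fragments per kilobase of transcript, scaled to each cell's sequenced fragments), and detection means a value of at least 1 FPKM. Listed zeros can be failed estimates, since Eef2, a translation factor that every cell uses, was listed at 0 in 5 of the 115 cells kept.

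The 115 cells with at least 1000 genes were placed in classes by clustering from which all collagens had been left out. Epithelium-like cells numbered 56 in the wild type and 37 in Sox9Y440X/+, and mesenchyme-like cells 1 and 21. By the labels, the median count of genes in a cell was 3241.5 in wild-type epithelium-like cells, 4506 in Sox9Y440X/+ epithelium-like cells and 3593 in Sox9Y440X/+ mesenchyme-like cells. Epithelium-like cells had 5 to 15 of the 15 epithelial markers, and mesenchyme-like Sox9Y440X/+ cells had 0 to 2. Mesenchyme-like Sox9Y440X/+ cells had 2 to 13 of 16 mesenchymal markers, with a median of 6, against a median of 1 in both epithelium-like groups. Among these markers Mfap2, a microfibril protein, was detected in 41 wild-type and 35 Sox9Y440X/+ epithelium-like cells. Dcn, on the same list, was among the leading genes of cluster 1, an epithelium-like cluster. Twist1, Twist2, Lum, Zeb1 and Snai2 reached an FPKM of 1 in no epithelium-like cell. Clusters were named from these same epithelial and mesenchymal lists, so the marker counts follow in part from the naming and are no separate support for it. Of 14 mesenchymal markers compared between Sox9Y440X/+ classes, 11 were higher in mesenchyme-like cells by at least 1 log2 unit, beside 8.41% of all genes. Mfap2 and Dcn were not among these 11. Tbx18 was listed at 0 in every group.

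Within the mesenchyme-like class, 2 Sox9Y440X/+ cells stood apart. Sox9Y440X/+ cell 10 had all 10 endothelial markers and 2 mesenchymal ones, and Sox9Y440X/+ cell 20 had 3 pericyte, 2 endothelial and 3 mesenchymal markers. Results on connective cells are given for all 21 cells, and for the differences and correlations of collagens also for the 19 without these, a choice made after their values had been seen. The remaining 19 had 3 to 13 mesenchymal markers and at most 1 endothelial marker.

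Every kept cell contained at least 1 collagen, but the connective cells contained many more. A wild-type epithelium-like cell held 1 to 9 of them (median 4), a Sox9Y440X/+ epithelium-like cell 1 to 9 (median 5) and a Sox9Y440X/+ mesenchyme-like cell 3 to 23 (median 12). Summed collagen FPKM had medians of 219.1, 128.3 and 1340 in the same order, and its highest value in an epithelium-like cell, 684.1, lay above the lowest in a Sox9Y440X/+ mesenchyme-like cell, 341.3. That lowest value belonged to cell 10. Of the 44 members, 24 were detected in 25% or more of at least 1 of the 3 groups named above and are described one by one, 12 were detected more rarely, and 8 reached an FPKM of 1 in no kept cell. For 22 of the 24, the share of cells was highest in the Sox9Y440X/+ mesenchyme-like class. The exceptions were Col14a1 and Col18a1, which were commonest in epithelium-like cells. The 25% limit was reached by 22 members in the mesenchyme-like class, 7 in wild-type and 8 in Sox9Y440X/+ epithelium-like cells. Members that reached it in the mesenchyme-like class alone were bound to be commonest there, so the count partly follows from the choice of members. The class of 1 wild-type mesenchyme-like cell entered none of these counts.

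**Figure D1:**
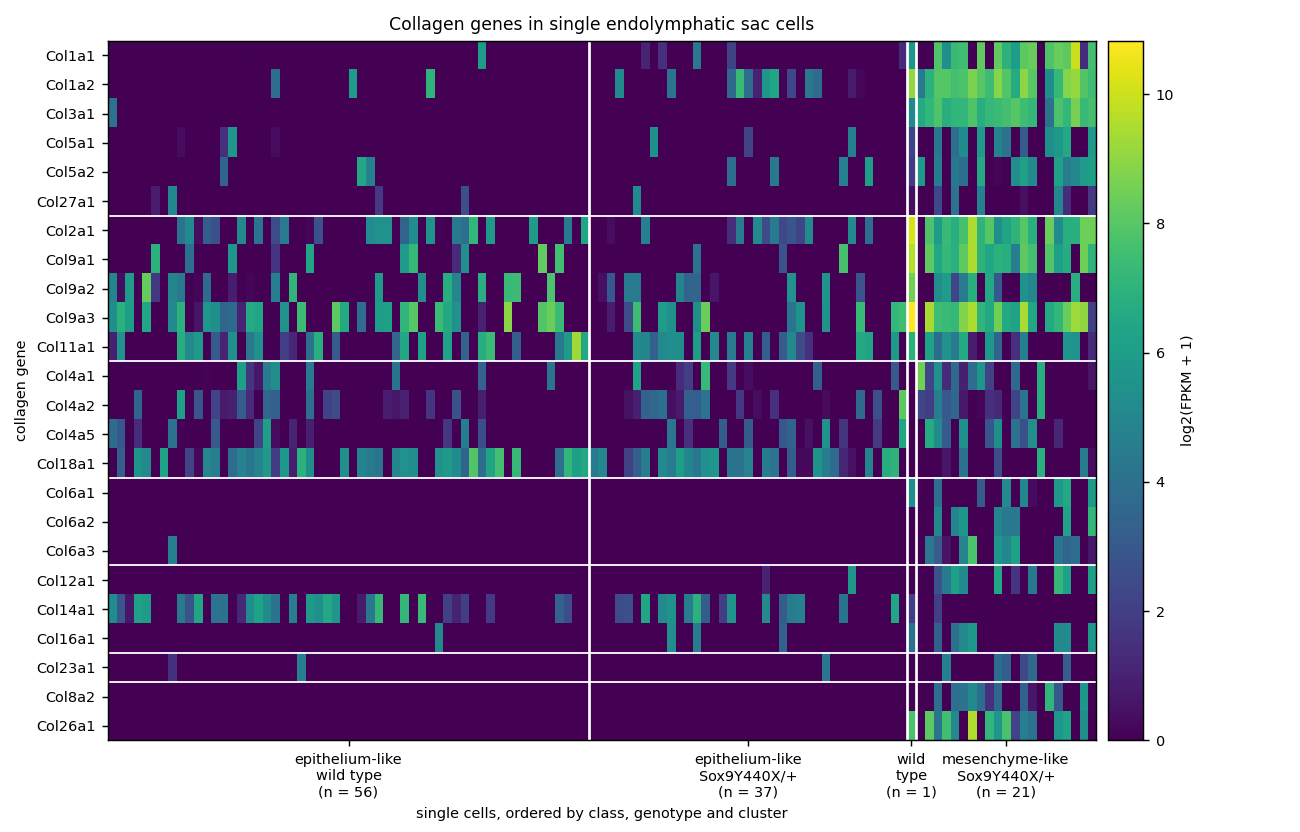
Levels of the 24 collagens described one by one (rows, grouped as fibrillar, cartilage-type, basement membrane, beaded filament, fibril-associated, transmembrane, and short-chain and other) in 115 single cells (columns), as log2(FPKM + 1). Of the 21 Sox9Y440X/+ mesenchyme-like cells at the right, 18 carry Col1a2 and Col3a1 together with Col2a1, Col9a1 and Col9a3, and Col14a1 and Col18a1 are spread over the epithelium-like columns of both genotypes.

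Connective cells, as the mesenchyme-like cells are called here, were compared with epithelium-like cells within Sox9Y440X/+, the genotype that held 21 of the 22 mesenchyme-like cells. Differences are between means of log2(FPKM + 1) over cells. With 1 sample per genotype there is no test, and a gene counted as higher or lower when the difference reached 1 log2 unit. Of the 26 collagens found in 10% or more of either class, 18 were higher and 2 lower in the connective cells. Over all 10950 genes so compared, 8.41% were higher and 16.2% lower. The median difference was 1.87 for the collagens and -0.19 for all genes compared. For 6 of the 18 every Sox9Y440X/+ epithelium-like cell was listed at 0, so the size of their difference depends on the pseudocount and is not given, though they are in the count and the median. Without cells 10 and 20, 18 members were again higher, 17 of them shared: Col4a1 dropped out at 0.88 and Col23a1 came in at 1.01.

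Chains of types II and XI also form fibrils, but they were grouped here with types IX and X as cartilage-type and are described below. Among the members grouped as fibrillar, Col1a2, Col3a1 and Col1a1, the chains of type I and type III collagen, were found most often in connective cells. Col1a2 was detected in 20 of 21 of them (95.2%, exact Clopper-Pearson 95% interval 76.2 to 99.9, which like all such intervals here covers counting error only). Its FPKM ran from 0 through a median of 242.2 to 556.1, and from 41.3 through 243.9 to 556.1 in the 19 cells. In epithelium-like cells it was found 3 times in the wild type and 10 times in Sox9Y440X/+. The mean log2(FPKM + 1) was 7.29 ± 2.03 (SD over 21 cells) against 1.31 ± 2.20 (SD over 37 cells), a difference of 5.97 (6.51 with the 19 connective cells). The ranges overlapped, the highest Sox9Y440X/+ epithelium-like cell standing at 156.4.

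Within Sox9Y440X/+ the classes overlapped in Col3a1, the chain of type III collagen, only at cell 10. It was detected in 20 of 21 connective cells, with a median FPKM of 148.5 and a highest value of 385.8, and was detected in all of the 19 cells, at 15.3 or more. It was listed at 0 in each of the 37 Sox9Y440X/+ epithelium-like cells, which allows a share of up to 8.11%. In the wild type it was found in 1 epithelium-like cell, at 15.3. On GRCm38, the assembly of mm10, Col3a1 spans chr1:45311538-45349706 on the plus strand and Col1a2 chr6:4504814-4541544 on the plus strand. Col1a1, which pairs with Col1a2 in type I collagen, was detected in 16 connective cells, with a median of 178.4 and a highest value of 993.8, and in 1 wild-type and 5 Sox9Y440X/+ epithelium-like cells. Its difference was 5.30 (5.88 with the 19 cells).

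Type I collagen takes a pair of Col1a1 chains for each Col1a2 chain, but the transcripts did not follow that proportion cell by cell. In the 16 connective cells with both, the FPKM ratio of Col1a1 to Col1a2, which is per length, had a median of 0.815 and extremes of 0.00699 and 5.57, and it exceeded 1 in 6. Another 4 connective cells had Col1a2 without Col1a1, and no connective cell had Col1a1 without Col1a2. Across the 21 connective cells Pearson's r of log2(FPKM + 1) was 0.88 between Col1a2 and Col3a1 and 0.49 between Col1a1 and Col1a2. Over the 19 cells the values were 0.63 and 0.16. They describe cells that share 1 genotype sample, and cell 10 was at 0 for all 3 genes.

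The regulatory fibrillar chains were found in fewer connective cells. Col5a1 and Col5a2, the chains of type V collagen, which sets fibril diameter, were detected in 11 and 13 of the 21 connective cells, with highest values of 90.3 and 91.5 FPKM. In epithelium-like cells Col5a1 was found in 2 wild-type and 3 Sox9Y440X/+ cells, and Col5a2 in 3 and 4. The differences were 2.27 and 2.82 (2.55 and 2.87 with the 19 cells). Col27a1 was detected in 6 connective cells and its difference of 0.81 (0.91 with the 19) did not reach 1 log2 unit. Col5a2 lies 24614 bases from Col3a1 on the opposite strand, and all 13 connective cells with Col5a2 also had Col3a1. Col24a1, another minor fibrillar chain, was below an FPKM of 1 in every kept cell.

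Cartilage-type collagens were found in the same connective cells as the fibrillar ones. Col2a1, the chain of type II collagen, was detected in 19 of 21 (90.5%, interval 69.6 to 98.8), with FPKM from 0 through a median of 129.0 to 712.9, and in all of the 19 cells, at 36.5 or more. Some epithelium-like cells also held Col2a1, 22 of the wild type and 12 of Sox9Y440X/+, but their highest values were 141.3 and 34.3. Every connective cell with Col2a1 thus exceeded every Sox9Y440X/+ epithelium-like cell, and cells 10 and 20 were listed at 0. The difference was 5.36 (6.05 with the 19 cells).

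The 3 chains of type IX collagen, which coats type II fibrils, differed from each other. Col9a1 was detected in 18 connective cells (median FPKM 122.4, highest 716.2) and Col9a3 in 19 (median 147.6, highest 719.3). Col9a2 was detected in only 10, with a median of 0 and a highest value of 110.4. The differences from Sox9Y440X/+ epithelium-like cells were 5.80, 4.84 and 1.42 for Col9a1, Col9a3 and Col9a2, and 6.46, 5.56 and 1.68 with the 19 cells. In the smaller of the connective clusters taken alone they were 5.08, 4.14 and 0.43, so Col9a2 did not reach 1 log2 unit there. In the 10 connective cells with both Col9a2 and Col9a3, the ratio of Col9a2 to Col9a3 had a median of 0.166 and exceeded 1 in 1 cell. For Col9a1 to Col9a3 the median ratio was 0.725 over 18 cells.

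Type XI collagen, the core of cartilage fibrils, was not a mark of the connective class. Col11a1 was detected in 12 connective, 26 wild-type epithelium-like and 18 Sox9Y440X/+ epithelium-like cells, or 57.1%, 46.4% and 48.6%, and its difference was 0.38 (0.66 without cells 10 and 20). Col11a2 was found in 1 connective cell against 7 epithelium-like cells of each genotype. Col10a1, a marker of hypertrophic cartilage, was detected in 1 Sox9Y440X/+ epithelium-like cell, at 6.6 FPKM.

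Type I, II, III and IX chains were detected in the same single cells. Col1a2, Col3a1, Col2a1, Col9a1 and Col9a3 were found together in 18 of 21 Sox9Y440X/+ connective cells, or in 18 of the 19, and in 0 of 93 epithelium-like cells. The exceptions were cells 10 and 20 and cell 44, where Col9a1 was listed at 0. Of 9 chondrocyte markers, the 19 cells had 0 to 3 with a median of 1, and 9 cells had none. Acan, the aggrecan core protein, was detected in 3 of the 21, and Matn1, Matn3, Comp and Snorc in none. Of 3 chondrocyte markers compared between Sox9Y440X/+ classes, 2 had differences above 0, none reaching 1 log2 unit. Hapln1 was lower in connective cells by at least 1 log2 unit. Of 6 osteoblast markers, 15 of the 19 cells had none.

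**Figure D2:**
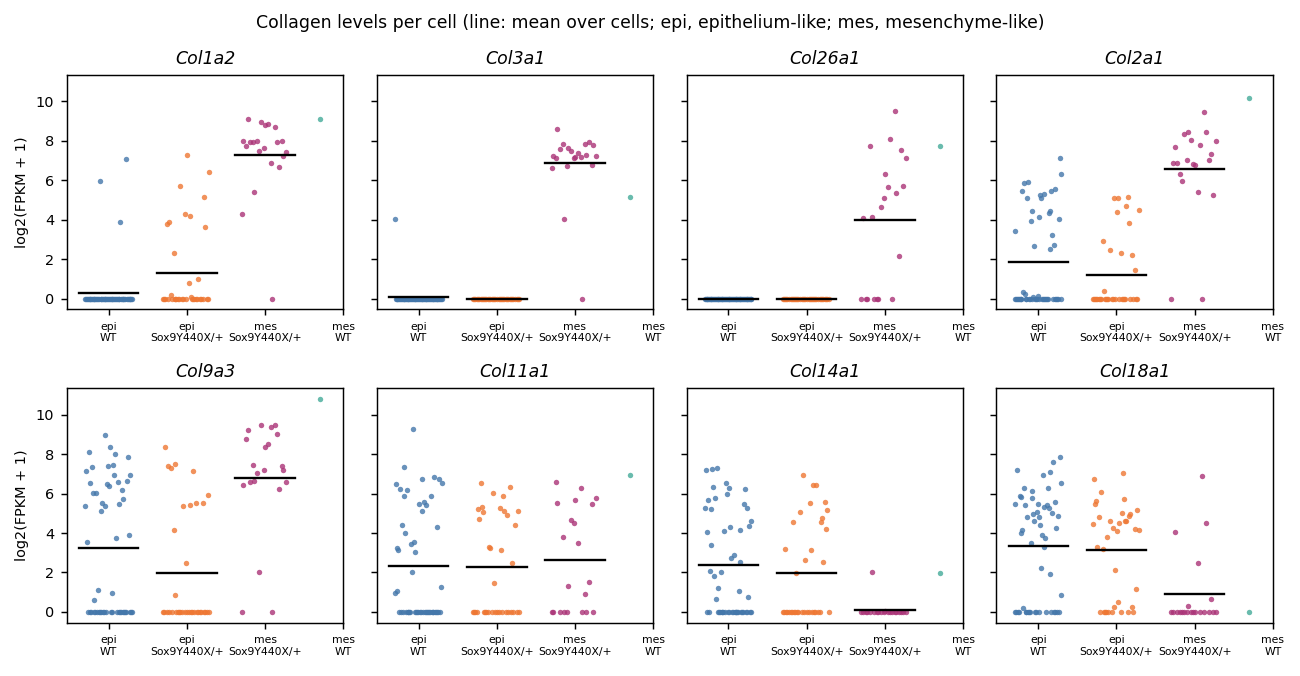
Levels of 8 collagens in every kept cell as log2(FPKM + 1), with 1 point per cell and a line at the mean over cells. Groups are epithelium-like wild type (56 cells), epithelium-like Sox9Y440X/+ (37), mesenchyme-like Sox9Y440X/+ (21) and the 1 mesenchyme-like wild-type cell. Col3a1 and Col26a1 lie at 0 in nearly all or all epithelium-like cells, Col11a1 spreads alike over the first 3 groups, and Col14a1 and Col18a1 are highest in epithelium-like cells.

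The single wild-type mesenchyme-like cell, wild-type cell 27, had the same 5 collagens. Its FPKM was 1814.6 for Col9a3, 1136.5 for Col2a1, 784.0 for Col9a1, 559.4 for Col1a2 and 34.1 for Col3a1. The first 4 values were above those of all 21 Sox9Y440X/+ connective cells, whose highest were 719.3, 712.9, 716.2 and 556.1. It also had Col9a2 at 378.5, Col26a1 at 216.2, Col11a1 at 124.1 and Acan at 11.1, and 15 collagens in all. With 1 cell, no comparison of genotypes in connective cells can be made.

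Promoters are printed for a pair of genes detected together in connective cells, Col3a1 and Col9a1, for Col11a1, found at a similar share in all 3 groups, and for Col5a3, found in epithelium-like cells alone. Sequences are the 120 bases before the start in RefSeq (build GRCm38.p6), 5′ to 3′ on the gene's strand. Capitals mark, on either strand, TATAAA, the letters of the classical TATA element, the CCAAT motif, and the sequence bound by SP1-type factors, GGGCGG, known as the GC box.
Col3a1 (chr1:45311418-45311537, plus strand): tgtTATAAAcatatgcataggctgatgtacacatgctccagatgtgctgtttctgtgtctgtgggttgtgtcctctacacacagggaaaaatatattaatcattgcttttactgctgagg
Col9a1 (chr1:24177490-24177609, plus strand): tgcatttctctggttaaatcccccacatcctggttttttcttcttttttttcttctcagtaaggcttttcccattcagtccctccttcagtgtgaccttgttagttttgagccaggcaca
Col11a1 (chr3:114030420-114030539, plus strand): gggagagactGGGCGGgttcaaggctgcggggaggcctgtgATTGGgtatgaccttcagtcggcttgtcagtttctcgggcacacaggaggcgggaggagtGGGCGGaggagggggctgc
Col5a3 (chr9:20815068-20815187, minus strand): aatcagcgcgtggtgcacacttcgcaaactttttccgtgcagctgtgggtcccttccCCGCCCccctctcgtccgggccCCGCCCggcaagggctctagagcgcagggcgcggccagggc
Promoter entries matched 35 of the 44 members, with 38 starts. Another start of Col9a1, not printed because its 120 bases overlap an exon of the gene, had CCAAT at -18 from that start. GGGCGG on either strand was found within 250 bases before the start in 57.9% of the collagen promoters and 32.7% of all 32851 promoters, CCAAT in 34.2% and 33.8%, and TATAAA in 13.2% and 12.4%. AACAAT, the core letters that SOX proteins bind, was found in 2.63% and 9.42%, and the 1 collagen promoter with it was that of Col3a1. The matches in Col3a1 began at -196 and -192 from the start, outside the 120 bases printed. These are letter matches and not measured binding sites.

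Beaded filament collagens were found in 14 of 21 connective cells and in 1 epithelium-like cell of each genotype. Type VI collagen forms a fine network around connective cells from 3 chains. Col6a1 was detected in 7, Col6a2 in 8 and Col6a3 in 10 of the 21 connective cells, with highest values of 90.5, 141.6 and 219.0 FPKM. All 3 were listed at 0 in every Sox9Y440X/+ epithelium-like cell, and of the 56 wild-type epithelium-like cells 1 had Col6a3, at 23.98. The chains were not always found together: 4 connective cells had both Col6a1 and Col6a2, 3 had Col6a1 without Col6a2 and 4 the reverse. Col6a5 and Col6a6 were each detected in 1 Sox9Y440X/+ epithelium-like cell, at 1.20 and 4.87 FPKM, and Col6a4 in none.

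Col26a1 and Col8a2 were detected in no epithelium-like cell. Col26a1 was found in 14 of 21 connective cells (66.7%, interval 43.03 to 85.4), from 0 through a median of 24.4 to 742.1 FPKM. In both genotypes every epithelium-like cell was listed at 0, which allows shares of up to 5.36% and 8.11%. Col8a2, a short-chain collagen of sheet-like networks, was found in 11 connective cells, with a highest value of 137.3. Its partner Col8a1 was found in 2, and Col28a1 in none.

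Fibril-associated collagens, which sit on the surface of fibrils, divided between the classes. Col12a1 was detected in 10 connective cells and in 0 wild-type and 2 Sox9Y440X/+ epithelium-like cells, a difference of 2.23 (2.48 with the 19). Col16a1 was detected in 7 connective cells and in 1 and 3 epithelium-like cells, a difference of 1.28 (1.45 with the 19). Col14a1 went the other way. It was found in 29 of the 56 wild-type epithelium-like cells and 16 of the 37 from Sox9Y440X/+, with highest values of 156.8 and 120.6 FPKM, but in 1 connective cell, at 3.13, and its difference was -1.87 (-1.86 with the 19). Col20a1 was seen in 3 wild-type and 1 Sox9Y440X/+ epithelium-like cells, while Col19a1 and Col22a1 were listed at 0 in all kept cells. Col19a1 lies 9205 bases from Col9a1 on the opposite strand.

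Basement membrane collagens were found in 46 wild-type and 31 Sox9Y440X/+ epithelium-like cells and in 16 connective cells. Col18a1, which carries the endostatin fragment at its end, was the most widespread collagen of epithelium-like cells. It was found in 36 of the 56 wild-type ones (64.3%, interval 50.4 to 76.6) and 25 of the 37 Sox9Y440X/+ ones (67.6%, interval 50.2 to 81.99), with median FPKM of 17.6 and 16.6. In connective cells it was found in 4 of 21, of which cell 10 was highest at 116.1, and its difference was -2.22 (-2.49 without cells 10 and 20).

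Col4a1 and Col4a2, the common pair of type IV collagen, were found in all classes. Col4a1 was detected in 10 connective cells, 8 wild-type epithelium-like cells and 7 Sox9Y440X/+ epithelium-like cells, and Col4a2 in 10, 14 and 11. The highest connective values of Col4a1 were 369.2 in cell 20 and 114.3 in cell 10, the cells with pericyte and endothelial markers, and the highest in the other 19 was 51.3. The difference of Col4a1 was 1.46 with these cells and 0.88 without them. That of Col4a2 was 0.38 and 0.07. The annotated genes lie on opposite strands with a gap of -22 bases, so they overlap, and no source used here says that strand was used in counting.

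The rarer type IV chains were found mainly one by one. Col4a5 was detected in 10 connective, 11 wild-type epithelium-like and 10 Sox9Y440X/+ epithelium-like cells, with a difference of 1.07, of 1.28 with the 19 cells and of -0.12 in the smaller of the connective clusters taken alone. Its neighbour Col4a6 was detected in 1, 5 and 1. Col4a3 was found in 4 wild-type epithelium-like cells only among those measured, and Col4a4 in 3 wild-type and 1 Sox9Y440X/+ cells. Col7a1, the anchoring fibril collagen, was found in 3 and 2 epithelium-like cells and in no connective cell. Col15a1 stayed below an FPKM of 1 throughout.

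Transmembrane collagens were rare. Col23a1 was detected in 6 connective, 2 wild-type epithelium-like and 1 Sox9Y440X/+ epithelium-like cells. Col13a1 was found in 1 wild-type epithelium-like cell, at 538.4 FPKM, and in 4 Sox9Y440X/+ epithelium-like cells, at 2.56 to 25.01. Col17a1, the hemidesmosome collagen, and Col25a1 were listed at 0 in every kept cell.

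**Figure D3:**
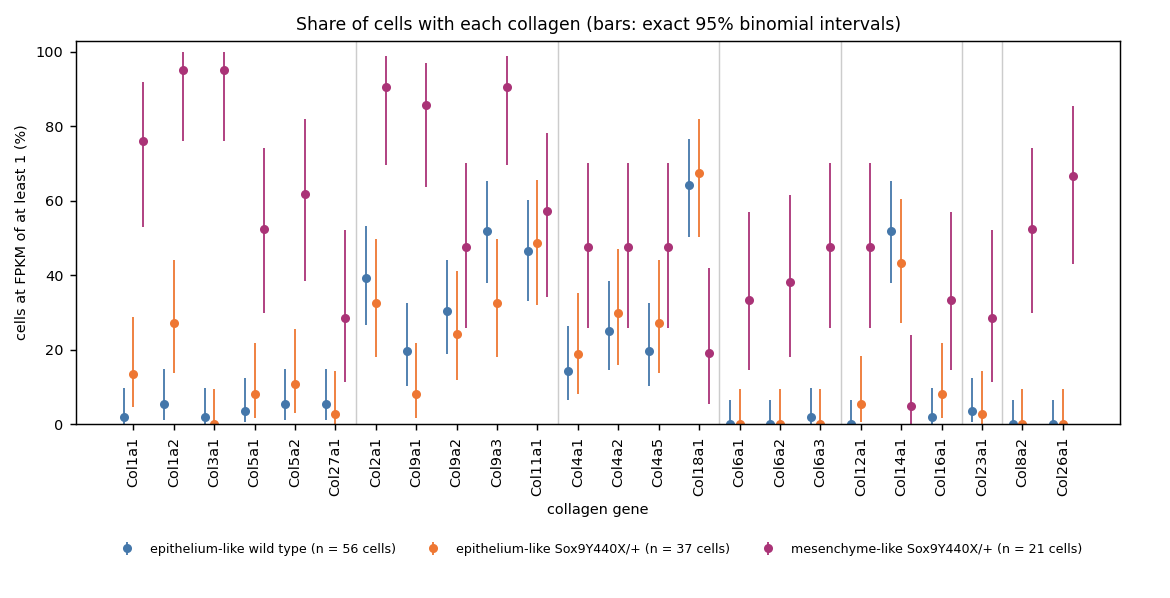
Share of cells (percent) at an FPKM of at least 1 for each of the 24 collagens, by class and genotype. Bars are exact 95% binomial intervals, which cover counting error only. The mesenchyme-like shares of Col3a1 (95.2%) and Col26a1 (66.7%) stand clear of the epithelium-like ones, and those of Col14a1 (4.76%) and Col18a1 (19.05%) lie below them.

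Connective cells fell into a pair of clusters, which held 13 and 8 Sox9Y440X/+ cells. Both had Col1a2 and Col3a1, in 13 of 13 and 7 of 8 cells, and the cell without them was cell 10. Col9a2 was detected in 8 of 13 and 2 of 8, Col4a5 in 8 of 13 and 2 of 8, Col26a1 in 10 of 13 and 4 of 8, and Col1a1 in 9 of 13 and 7 of 8. The median number of genes per cell was 4266 in the first cluster, wild-type cell 27 included, and 2765 in the second, and its part in these counts was not tested.

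Genotypes were compared within epithelium-like cells, to ask whether collagen levels there differed with the Sox9Y440X allele. Of 16 collagens found in 10% or more of the cells of 1 genotype, 1 was higher by at least 1 log2 unit in Sox9Y440X/+ (Col1a2) and 1 was lower (Col9a3). Over all 10342 genes compared, 8.02% were higher and 1.38% lower. The median difference was -0.00365 for the collagens and 0.22 for all genes, beside the larger number of genes per cell in Sox9Y440X/+. Among the 16, 8 lay below 0 and 8 above, and of the 6 cartilage-type members 5 lay below 0. Of all genes compared, 69.9% lay above 0. Over all kept cells, with their different mix of classes, the differences were 3.02 for Col1a2, 2.33 for Col3a1 and 0.34 for Col9a3.

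Col9a3 was found in 29 of the 56 wild-type cells (51.8%, interval 38.03 to 65.3) and 12 of the 37 Sox9Y440X/+ cells (32.4%, interval 18.01 to 49.8). Its FPKM ranged to 495.5 with a median of 5.86 in the wild type and to 323.9 with a median of 0 in Sox9Y440X/+, so the ranges overlapped. The difference was -1.28. It was -0.94 against wild-type cells without Xist, -0.99 without the ionocyte-like cluster, -0.87 as the log2 ratio of mean FPKM + 1 and -0.68 with a pseudocount of 10. The call of 1 log2 unit was lost in each of these. It was kept in the other settings, at -1.28 to -1.92. The gene spans chr2:180597790-180622189 on the plus strand. Of the 4 clusters with at least 4 cells of each genotype, 3 had lower Col9a3 in Sox9Y440X/+, by -3.08 in the ionocyte-like cluster 1 (5 of 8 against 1 of 5 cells), -2.13 in cluster 3 (7 of 11 against 2 of 11) and -1.43 in cluster 6 (12 of 22 against 2 of 6). In cluster 8 it was higher by 1.09 (1 of 4 against 2 of 5).

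The other cartilage-type chains differed by less than 1 log2 unit. Col9a2, in 17 wild-type and 9 Sox9Y440X/+ cells, differed by -0.74, Col9a1, in 11 and 3 cells, by -0.68, and Col2a1, in 22 and 12 cells, by -0.64. The intervals of the shares, which cover counting error over cells only, overlapped for each. Those of Col9a3 and Col1a2 overlapped as well, so the overlap does not set these chains apart. Col2a1 was not lower in all clusters: in cluster 3 it was present in 6 of 11 cells of the wild type and 9 of 11 of Sox9Y440X/+, but in 10 of 22 and 1 of 6 cells of cluster 6.

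Col1a2 was the collagen higher in Sox9Y440X/+ epithelium-like cells, in 10 of 37 (27.03%, interval 13.8 to 44.1) against 3 of 56 in the wild type (5.36%, interval 1.12 to 14.9). The difference was 1.01, close to the threshold of 1. It was 0.55 against wild-type cells without Xist, 0.38 with a pseudocount of 10, 0.87 in cells with 2500 to 5500 genes and 0.98 with FPKM scaled to the same total. The call was lost in each of these. In the other settings it was kept, at 1.01 to 1.88. The 10 cells had 3.92, 11.5, 12.9, 13.6, 17, 18.4, 34.3, 50.8, 83.7 and 156.4 FPKM, and the 3 wild-type cells 13.6, 62.6 and 132.6. Most of the Sox9Y440X/+ values lay far below the connective median of 242.2. Of the 10, 7 were in cluster 3, where 1 of 11 wild-type cells had Col1a2. Col3a1 was listed below an FPKM of 1 in all 10 and Col1a1 was detected in 1. They had 10 to 14 epithelial and 0 to 2 mesenchymal markers, against 7 to 15 and 0 to 3 in the other 27 Sox9Y440X/+ epithelium-like cells. The median of epithelial markers was 14 against 12. Their median number of genes was 5158 against 4232, and its part in the detection of Col1a2 was not tested.

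**Figure D4:**
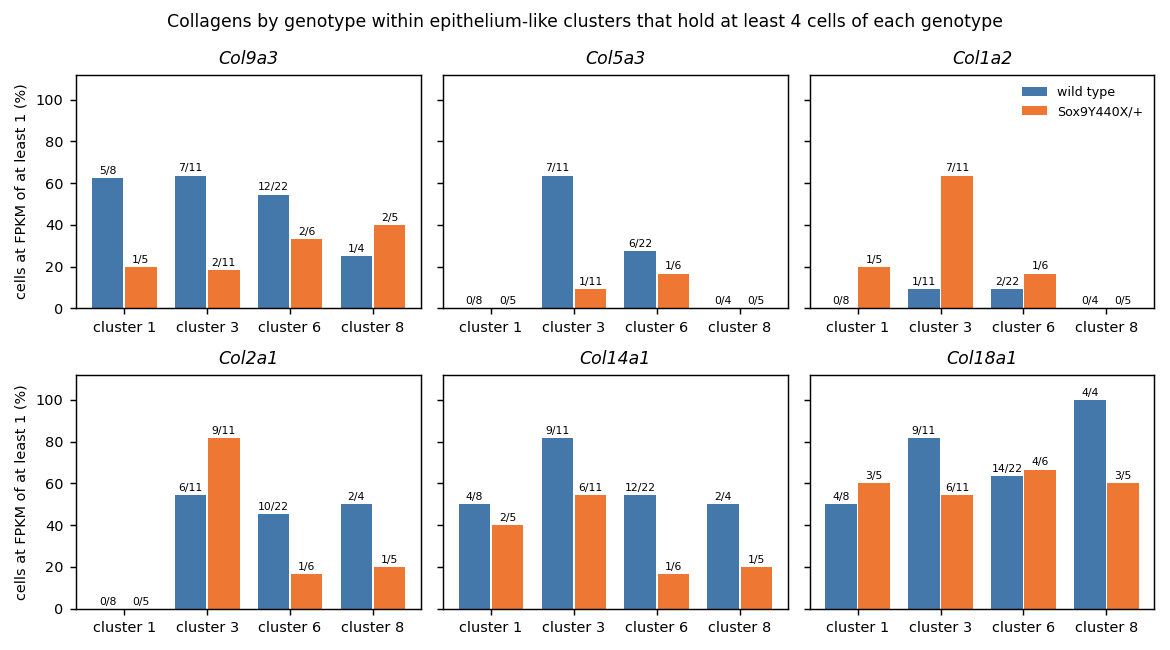
Percent of cells with each of 6 collagens in wild type and Sox9Y440X/+, within the 4 epithelium-like clusters that hold at least 4 cells of each genotype (numbers over the bars are cells detected of all cells). Col1a2 differs mainly in cluster 3 (1 of 11 against 7 of 11), and Col9a3 is rarer in Sox9Y440X/+ in clusters 1, 3 and 6 but not in cluster 8.

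Col5a3, a minor chain of type V collagen, was singled out after its values had been seen. It was detected in 13 wild-type (23.2%, interval 12.98 to 36.4) and 2 Sox9Y440X/+ epithelium-like cells (5.41%, interval 0.661 to 18.2) and was listed at 0 in all 21 connective cells. The highest values were 173.9 and 34.9 FPKM, and the difference was -0.96. In cluster 3 it was found in 7 of 11 cells of the wild type and 1 of 11 of Sox9Y440X/+. Of the 13 wild-type cells with Col5a3, 11 also had Sox10, a relative of Sox9 present in 26 wild-type epithelium-like cells and 2 Sox9Y440X/+ ones.

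For some collagens the pooled difference was unlike those within shared clusters, and the part of the mix of clusters was not tested. Col11a1 differed by -0.06 over all epithelium-like cells but was lower in Sox9Y440X/+ in each of the 4 shared clusters, by -0.52 to -4.07. In cluster 3, at -0.52, 7 of 11 cells of each genotype had Col11a1. In cluster 8, at -4.07, 4 of 4 wild-type and 2 of 5 Sox9Y440X/+ cells had it. In cluster 2, which held 1 wild-type cell, 8 of the 10 Sox9Y440X/+ cells had it. Col14a1 differed by -0.40 over all cells and was lower in each of the 4, by -0.21 to -2.03. Col18a1 differed by -0.24 and was lower in each of the 4, by -0.20 to -2.23. Pooled over these 4 clusters alone, the differences were -0.75, -1.30 and -0.80.

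Of the type IV chains, Col4a1, Col4a2 and Col4a5 differed by 0.06, 0.37 and 0.30, and Col4a5 and Col4a6 lie on the X chromosome. Xist, which is transcribed from the inactive X, was present in 34 of the 56 wild-type epithelium-like cells and in 0 of the 37 Sox9Y440X/+ ones. Differences between genotypes therefore cannot be told apart from differences between sexes. A wild-type cell without Xist is not shown to be male, since listed zeros can be failed estimates. When the wild type was limited to its 22 cells without Xist, Col1a2 differed by 0.55, Col9a3 by -0.94, Col9a1 by -1.49, Col14a1 by -1.13 and Col4a5 by 0.18. In the same cells Col2a1 differed by -0.24 and Col9a2 by -0.23, and Col18a1 and Col11a1 lay above 0, at 0.28 and 0.40. The remaining described members, Col1a1, Col3a1, Col5a1, Col5a2, Col27a1, Col6a3, Col12a1, Col16a1 and Col23a1, differed between genotypes by -0.08 to 0.27, and Col6a1, Col6a2, Col8a2 and Col26a1 were listed at 0 in epithelium-like cells of both.

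The proteins that build, export and remodel collagen were described from lists of 62 genes, with all 21 connective cells. Of 14 genes for proline and lysine hydroxylation and glycosylation, 12 were compared between Sox9Y440X/+ classes. In connective cells 4 of the 12 (33.3%) were higher and 2 (16.7%) lower, beside 8.41% and 16.2% of all genes. The higher ones were Plod1 (1.66), a lysyl hydroxylase found in 14 of 21 connective cells, P3h1 (1.25), P3h3 (1.79) and P4ha3, which was listed at 0 in all epithelium-like cells and detected in 6 connective cells. P3h4 and Plod3 were lower, by -2.02 and -1.56, a share near that of all genes. P4hb, the shared subunit of prolyl 4-hydroxylase, was found in 55, 37 and 20 cells of the 3 groups, with median FPKM of 226.1, 205.5 and 172.02, the classes differing by -0.24.

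Of 10 folding and secretion genes, 8 were compared, 3 were higher (37.5%) and none lower, beside 8.41% and 16.2% of all genes. Fkbp10, a collagen chaperone, was detected in 14 of 21 connective cells against 10 of 37 epithelium-like ones and differed by 3.09, Sec23a, a coat protein of export vesicles, by 2.07 and Fkbp14 by 1.29. Serpinh1, the collagen chaperone HSP47, was found in all 21 connective cells (median 43.7 FPKM), 35 of 37 Sox9Y440X/+ epithelium-like cells (median 25.6) and 45 of 56 wild-type ones (median 10.8). It differed by 0.86 between classes and by 1.146 between genotypes. Between genotypes 1 of 8 folding and secretion genes compared was higher and none lower, beside 8.02% and 1.38% of all genes. Of 5 propeptide removal genes compared, Bmp1 was higher in connective cells (1.36) and Adamts3 lower (-1.63), each 20% of the 5. Adamts3 was found in 8 wild-type and 15 Sox9Y440X/+ epithelium-like cells, a difference of 1.21 between genotypes, where 1 of 4 compared was higher.

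Of 4 cross-linking enzymes compared, 2 were higher in connective cells and none lower, beside 8.41% and 16.2% of all genes. Lox, detected in 10 of 21 connective cells, was listed at 0 in all Sox9Y440X/+ epithelium-like cells, and Loxl1 differed by 1.71. The collagen receptor kinases were split: Ddr1 was found in 44 wild-type and 33 Sox9Y440X/+ epithelium-like cells and 4 connective cells (difference -3.73), and Ddr2 in 1, 1 and 18 (3.64). Itga1 was found in 5 connective cells and no epithelium-like cell, which made 2 of 5 receptors higher and 1 lower. Without cells 10 and 20, Itga1 no longer reached 1 log2 unit and the receptor Mrc2 (1.04) did. Mmp2, a gelatinase, was detected in 19 of 21 connective cells (median 139.8 FPKM) and 1 epithelium-like cell. With Ctsk, in 6 connective cells and no epithelium-like cell, and Timp3 (1.21), it made 3 of 7 compared higher and none lower. Between genotypes in epithelium-like cells, Mmp14 (1.43) was higher among 4 collagenolysis genes compared and the integrin Itgb1 (1.02) among 2 receptors. Plod1 was lower (-1.21) among 10 hydroxylation and glycosylation genes. Over all genes compared between genotypes, 8.02% were higher and 1.38% lower, and 69.9% lay above 0, beside the larger number of genes per cell in Sox9Y440X/+.

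Of the SOX factors known to act on cartilage collagens, Sox9 was present in 29 of the 56 wild-type epithelium-like cells, 36 of the 37 Sox9Y440X/+ ones and 17 of the 21 connective cells, with median FPKM of 1.85, 11.5 and 10.6. The difference between genotypes was 2.01, and FPKM does not separate the alleles. Of 4 SOX factors compared between genotypes, 1 was higher and 1, Sox10, lower, beside 8.02% and 1.38% of all genes. Col9a3 was found in 15 of the 29 wild-type cells with Sox9 and in 14 of the 27 without. All 17 connective cells with Sox9 had Col2a1, as did 2 without Sox9, and 2 had neither. Col2a1 was detected in all of the 19 cells, so every cell with Sox9 among them was bound to have it. Pearson's r between Sox9 and Col2a1 was 0.59 over the 21 cells and 0.29 over the 19. It was 0.09 over the 56 wild-type and 0.01 over the 37 Sox9Y440X/+ epithelium-like cells. Sox10 and Sox8 were listed at 0 in the 21 connective cells, Sox5 was detected in 6 and Sox6 in 4.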

How the data were processed

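The authors deposited 1 table of FPKM values, 48555 gene entries by 120 cells. Per the submitters' processing notes, HISAT2, SAMtools 0.1.18, Cufflinks and HTSeq were named with build mm10, without roles. Settings and annotation: not given in the sources used here. Entries with the same symbol were summed. FPKM keeps no read counts, so the depth per cell is unknown and low values carry unknown error. Cells below 1000 genes by their label (1 wild-type, 4 Sox9Y440X/+) were left out.

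Clusters (8, Ward linkage, 15 principal components of the 1500 most variable genes, collagens excluded) were named from 13 marker lists without collagens, needing at least 3 markers in at least 50% of cells. Doublets were not called. Of 111 marker genes 109 matched, 2 by an older symbol, as did all 62 pathway genes. Differences are of mean log2(FPKM + 1), pseudocount 1, for genes at FPKM 1 or more in 10% or more of either group, and the computation was tested on simulated data. Described one by one were collagens so detected in 25% or more of a class within 1 genotype. Of each pathway list, genes differing by at least 1 log2 unit were named, at most 4, or else those with the highest level. Members and lists were chosen with earlier results of these data known. Cells are not replicates, so no test was run. Gene coordinates are from GENCODE M21, promoters from RefSeq. Python 3.11.15, numpy 2.4.6, pandas 2.3.3, scipy 1.17.1 and matplotlib 3.10.9 were used.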

Additional observations from a re-analysis of the deposited data

Results flagged for a closer look

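A cell left out of every comparison carried collagens. Wild-type cell 56, with 479 genes per its label, had Col1a1 at 72.42, Col1a2 at 43.78, Col6a2 at 34.72, Col4a2 at 29.53 and Col6a3 at 29.27 FPKM. It was not assigned to a class. The other 4 cells below 1000 genes had no collagen at an FPKM of 1.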

How the results depend on the processing

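The count of collagens higher in connective cells (18) became 9 with a pseudocount of 10, and the count lower (2) became 0 with that pseudocount and 4 with the log2 ratio of mean FPKM + 1. The count higher in Sox9Y440X/+ epithelium-like cells (1) became 0 with a pseudocount of 10, with FPKM scaled to the same total, in cells with 2500 to 5500 genes and against wild-type cells without Xist, and 2 with the ratio of means. The count lower there (1) became 3 with a pseudocount of 0.1, 0 with one of 10, 5 with the ratio of means, 2 in cells with at least 2000 genes, 4 in cells with 2500 to 5500 genes and 2 against wild-type cells without Xist. In clusters with at least 4 cells of each genotype, a choice made after seeing the data, it became 3. A pseudocount of 10 shrinks differences by construction. The cause of the other moves was not tested. Of 308 recomputed values of the 22 called differences, 249 stayed within 0.25 log2 units or 1.5 times the reported value, 58 moved and 1 reversed, Col4a5 in the smaller connective cluster alone, at -0.12. Of 144 recomputed shares of cells, 9 moved. Settings that left out cells 10 and 20 or took 1 connective cluster were chosen later, with the values in view. No paired analysis was possible because cell numbers only name cells and no test was run. Depth is unknown, so a listed 0 does not show that a collagen was absent.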
